A study of Homo sapiens with 4 samples.

Results

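DLD-1 and HT-29, established cell lines from human colorectal adenocarcinomas, were compared by the brightness of each spot averaged over both colours of an array. All 4 arrays of the series entered, 2 for DLD-1 and 2 for HT-29. On each array 1 line's RNA was set against RNA of the same line after 5-aza-2'-deoxycytidine, an inhibitor of DNA methylation, given at 1 µM for 96 h to cells plated 24 h before. The first array of a line had the treated RNA in Cy5 and the second had the dyes exchanged. Both groups therefore held treated and untreated RNA in like parts, and the average over colours does not depend on which channel held the treated RNA. The value of a spot was the mean of its log2 background-corrected signals in file channels 1 and 2, brought to 1 distribution over the 4 arrays by quantile normalization, so 1 unit is 2-fold. The labels do not say that the arrays of a line came from separate cultures, and they were counted as 1 replicate of that line. Each line is then a single sample, and a standard deviation (SD) over its 2 arrays is a spread between hybridisations.

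DLD-1 is known to lack DNA mismatch repair through mutated MSH6, whereas HT-29 keeps mismatch repair and can form absorptive and mucus-secreting cells under some culture conditions. Cells of the gut lining pass from dividing progenitors to enterocytes, which build a brush border and absorb, and to goblet cells, which release mucus. Colorectal lines keep these programmes to different degrees.

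Of 29591 probes that were no controls and were not marked bad on any array, 24971 were tested, because at least 1 channel lay more than 2 background SD above the local background on both arrays of at least 1 line. They gave 11440 named genes. Printed blocks of spots were first checked for position. For 190 of the 192 blocks of the 4 arrays, spot values had a Pearson correlation of 0.56 to 0.95 with the mean of the other 3 arrays. In 2 neighbouring blocks of HT-29 array 1 (block columns 1 and 2 of block row 3) the correlation was 0.03 and −0.03. It was 0.80 in both when each value was set against the next spot row of the other arrays. Values listed there for 1238 probes thus matched those of the spots 1 row further on, and 4.33% of tested probes and 570 genes had a probe in them. Results were computed with these blocks as deposited, and are given without them or with the blocks moved back by 1 row where a named gene or count depends on it.

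**Figure D1:**
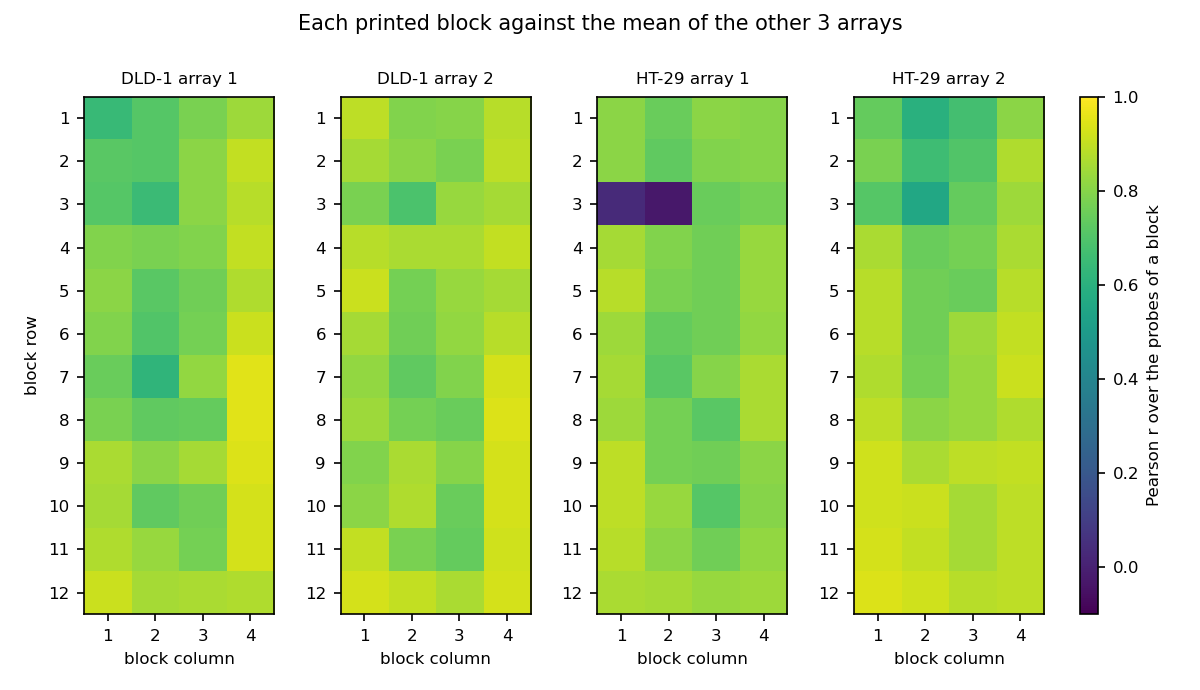
Pearson correlation (colour) of each of the 48 printed blocks of an array with the mean of the other 3 arrays, by block column and block row, 1 panel per array. The 2 dark blocks of HT-29 array 1, at 0.03 and −0.03, are the displaced ones; all other blocks lie between 0.56 and 0.95.

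Positive control spots, 24 per gene spread over the array, gave a check outside the probes compared. GAPDH, a glycolytic enzyme, had a median spot value of 13.98 and 13.51 on the DLD-1 arrays and of 12.06 and 11.42 on the HT-29 arrays. Both DLD-1 arrays lay above both HT-29 arrays, by 2.01 (4.01-fold), and 24 of 24 spots were brighter in DLD-1. The same difference was 1.59 to 3.11 in the 4 matched channels, that is, within each file channel and dye orientation separately. B2M, the light chain of MHC class I molecules, went the other way, with medians of 12.01 and 12.41 in DLD-1 and of 13.70 and 14.38 in HT-29. It was 3.56-fold brighter in HT-29, in 23 of the 23 spots outside the displaced blocks, and the 4 matched channels ran from −2.11 to −1.48. ACTB and RPL37A differed by −0.08 and −0.02, within the spread of their spots (SD 0.25 to 0.38 without the displaced blocks for ACTB). Without the displaced blocks GAPDH differed by 2.05 and B2M by −1.79. With array medians set equal in place of quantile normalization, the median over all genes shifted by 0.12 towards DLD-1, and GAPDH, B2M, ACTB and RPL37A then differed by 2.32, −1.31, 0.16 and 0.26. Probes outside the control set gave the same sign for GAPDH in 9 of 9 probes (median 1.52) and for B2M in its single probe (−2.25). For ACTB they did not match the control spots, since 6 of 6 probes were higher in DLD-1 by 0.43 to 1.49 (median 0.88), with 1 called. The single RPL37A probe differed by −0.18.

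**Figure D2:**
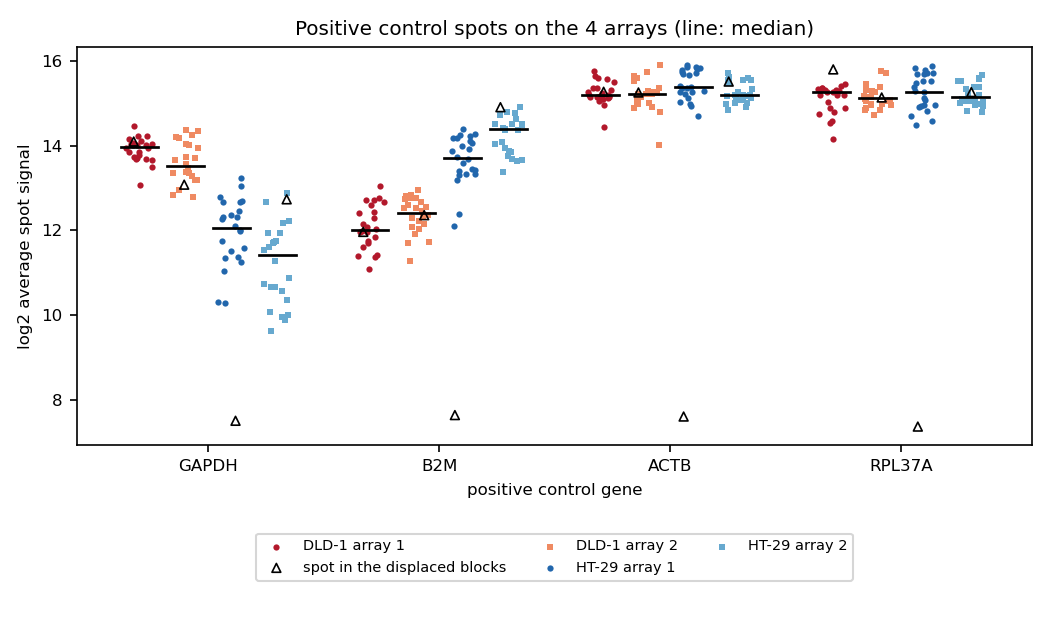
Log2 average spot signal (vertical axis) of the 24 control spots of GAPDH, B2M, ACTB and RPL37A on the 4 arrays, with 1 point per spot and a bar at the median of the array. GAPDH medians are 13.98 and 13.51 in DLD-1 against 12.06 and 11.42 in HT-29, and B2M runs in the opposite direction; the 4 points below 8 are the spots of HT-29 array 1 in the displaced blocks, whose positions triangles mark on every array.

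Across all genes, 2083 were called (18.2%), 1263 of them higher in DLD-1 (11%) and 820 higher in HT-29 (7.17%), where a call needed a difference of the line means of at least 2-fold and no overlap between the arrays of the lines. Without the displaced blocks the counts were 1215 (11.1%) and 783 (7.13%). These are descriptions and carry no p-value, since an exact permutation test of 2 arrays against 2 cannot give a two-sided p below 0.333. A stricter count asked for at least 2-fold in each of the 4 matched channels with 1 sign, and left 483 genes (4.22%), 290 in DLD-1 (2.53%) and 193 in HT-29 (1.69%). Over probes in place of genes, 4408 were called (17.7%). Across tested probes the DLD-1 arrays correlated at 0.65 and the HT-29 arrays at 0.46, and arrays of different lines at 0.45 to 0.62. Differences repeated little between the pairs of arrays. The difference on the first arrays and that on the dye-exchanged arrays had a Pearson correlation of 0.07 across genes, which are not independent replicates, and 51.4% of genes had 1 sign on both. Printed block accounted for 20.2% of the variance of the line difference, and with block medians set to 0 the correlation across probes was 0.14, against 0.05 as measured, and 1690 genes were called (14.8%). Only 1098 of the 2083 genes kept their call in the same direction, 661 of them towards DLD-1 and 437 towards HT-29. Among the genes named below, the differences on the 2 pairs were alike for some, such as LGALS4 (−4.78 and −4.64), and unlike for others, such as CDC20 (1.56 and 4.40).

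**Figure D3:**
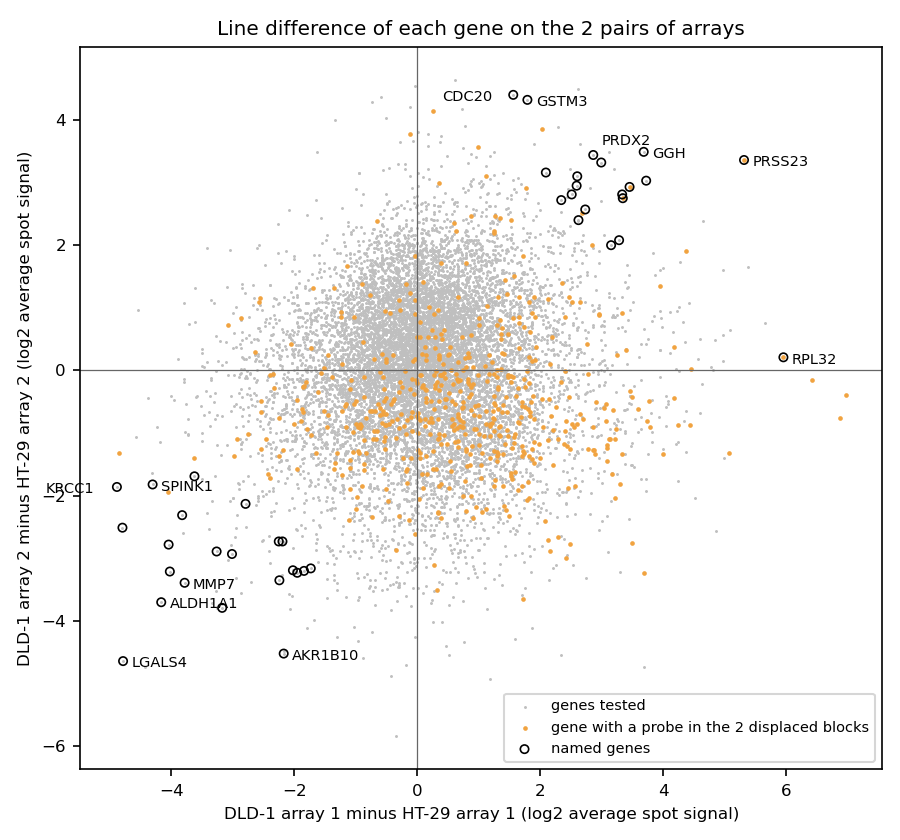
DLD-1 minus HT-29 (log2) of each gene tested on the first arrays (horizontal axis) and on the dye-exchanged arrays (vertical axis); orange points have a probe in the displaced blocks and open circles are the named genes. The cloud has a correlation of 0.07, while LGALS4, ALDH1A1 and MMP7 lie far out on both axes at the lower left and GGH and PRDX2 at the upper right. RPL32 lies near 0 on the vertical axis.

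The largest difference of any gene was in LGALS4, galectin-4, a sugar-binding protein of the intestinal epithelium. Its values were 8.42 and 8.80 in DLD-1 and 13.20 and 13.43 in HT-29, a difference of −4.71, and it was above background on 1 of the 2 DLD-1 arrays. The 4 matched channels ran from −5.34 to −4.07, so the difference was there in treated and in untreated RNA. ALDH1A1, a retinal-oxidising aldehyde dehydrogenase, measured 7.88 and 7.78 in DLD-1, not above background on either array, and 12.04 and 11.48 in HT-29. Against the lowest signal that counted as above background in both channels, HT-29 was at least 9.05-fold higher. The same bound was 10.2-fold for TM4SF4, a tetraspan membrane protein of liver and gut (8.71 and 8.20 against 11.89 and 11.98). It was 6.73-fold for GCNT3, which branches mucin-type sugar chains (7.36 and 8.08 against 11.38 and 11.29), and 5.19-fold for HKDC1, a hexokinase-like protein (7.82 and 8.16 against 10.83 and 11.09). GALP, KRCC1, PTCD2 and MED20 were also above background in HT-29 alone, with bounds of 6.80-, 6.06-, 5.50- and 5.45-fold.

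Among genes measured on all 4 arrays, HT-29 was higher in several enzymes and secreted proteins. AKR1B10, an aldo-keto reductase that reduces retinal and other aldehydes, measured 9.21 and 9.03 in DLD-1 and 11.38 and 13.54 in HT-29 (difference −3.34). AKR1C3, a ketosteroid reductase of the same family, measured 9.76 and 9.51 against 13.03 and 12.40 (−3.07). SPINK1, a secreted trypsin inhibitor, measured 9.25 and 12.47 against 13.55 and 14.29 (−3.06), so its 2 DLD-1 arrays differed from each other by more than its second pair of arrays did. LCN2, an iron-siderophore-binding protein of inflamed epithelium, measured 10.28 and 10.52 against 12.48 and 13.25 (−2.46). ANXA13, an annexin of the enterocyte brush border, measured 9.23 and 10.48 against 12.02 and 12.61 (−2.46). CRIP1, a small LIM protein of gut, measured 8.76 and 9.51 against 12.37 and 11.20 (−2.65). The other 6 named by the same rule were KIAA1143 (−3.41), RTF1 (−3.06), FAM110B (−2.61), EXTL2 (−2.59), SS18L1 (−2.52) and the olfactory receptor OR5AC2 (−2.49). Each of the 12 had 1 sign in all 4 matched channels, which the rule required, and the smallest of those differences was that of ANXA13 at −0.23.

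Outside those 12, MMP7, matrilysin, a matrix protease made by gut epithelial tumours, measured 9.04 and 9.01 in DLD-1 and 12.82 and 12.40 in HT-29 (−3.58). CCL15, a chemokine, measured 8.83 and 9.64 against 11.92 and 12.67 (−3.06). Both were above background on 1 of the 2 DLD-1 arrays and on both HT-29 arrays, and neither overlapped between the lines.

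In the other direction PRSS23, a secreted serine protease, measured 14.17 and 13.32 in DLD-1 and 8.86 and 9.96 in HT-29 (difference 4.34). Its probe lies in a displaced block. With the blocks moved back its HT-29 array 1 value was 10.55 and the difference 3.49, still called; it is the largest difference towards DLD-1 as deposited (4.34) and lies below that of GGH (3.59) once moved back. PRDX2, a peroxide-reducing peroxiredoxin, measured 11.97 and 12.41 against 9.11 and 8.97 (3.15). KTN1, kinectin of the endoplasmic reticulum, measured 12.54 and 12.03 against 9.21 and 9.22 (3.07). GSTM3, a glutathione S-transferase, measured 12.56 and 13.02 against 10.77 and 8.70 (3.05). Those 3 genes kept 1 sign with at least 1.71 in every matched channel. ME1, the cytosolic malic enzyme that makes NADPH, measured 12.46 and 12.12 against 9.31 and 10.13 (2.57). RING1, a subunit of Polycomb complexes, measured 11.76 and 12.13 against 9.03 and 9.56 (2.65). FOCAD, GTPBP8 and the nuclear pore protein NUP98 differed by 2.53, 2.63 and 2.51. RPL32, a ribosomal protein, also passed the rule with 3.08, but it rests on the displaced value of 9.32 on HT-29 array 1 against 14.93 on HT-29 array 2. Moved back, the first became 14.18 and the difference 0.65, which is no call.

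Genes above background in DLD-1 alone were led by GGH, which removes glutamates from folates, at 11.23 and 11.97 in DLD-1 and 7.55 and 8.48 in HT-29. DLD-1 was at least 8.0-fold higher. CNN3, an actin-binding calponin, measured 10.94 and 10.82 against 7.22 and 7.79, at least 5.37-fold higher. RSL1D1, a nucleolar protein, INTS10, a subunit of the Integrator complex, NMD3, an export adaptor of the large ribosomal subunit, and CLPP, a mitochondrial protease, had bounds of 5.23-, 6.05-, 4.77- and 5.21-fold. MTRR, which reactivates methionine synthase, and the ubiquitin protease USP11 had bounds of 7.44- and 7.12-fold with their probes in the displaced blocks. Moved back, USP11 measured 10.16 on HT-29 array 1 and differed by 2.11, still called, and MTRR lay in the spot row that the move leaves without a value. In all, of the 11440 genes tested, 154 were above background in DLD-1 alone and 92 of these were called higher there. In HT-29 alone 135 were above background, and 98 of these were called higher there.

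**Figure D4:**
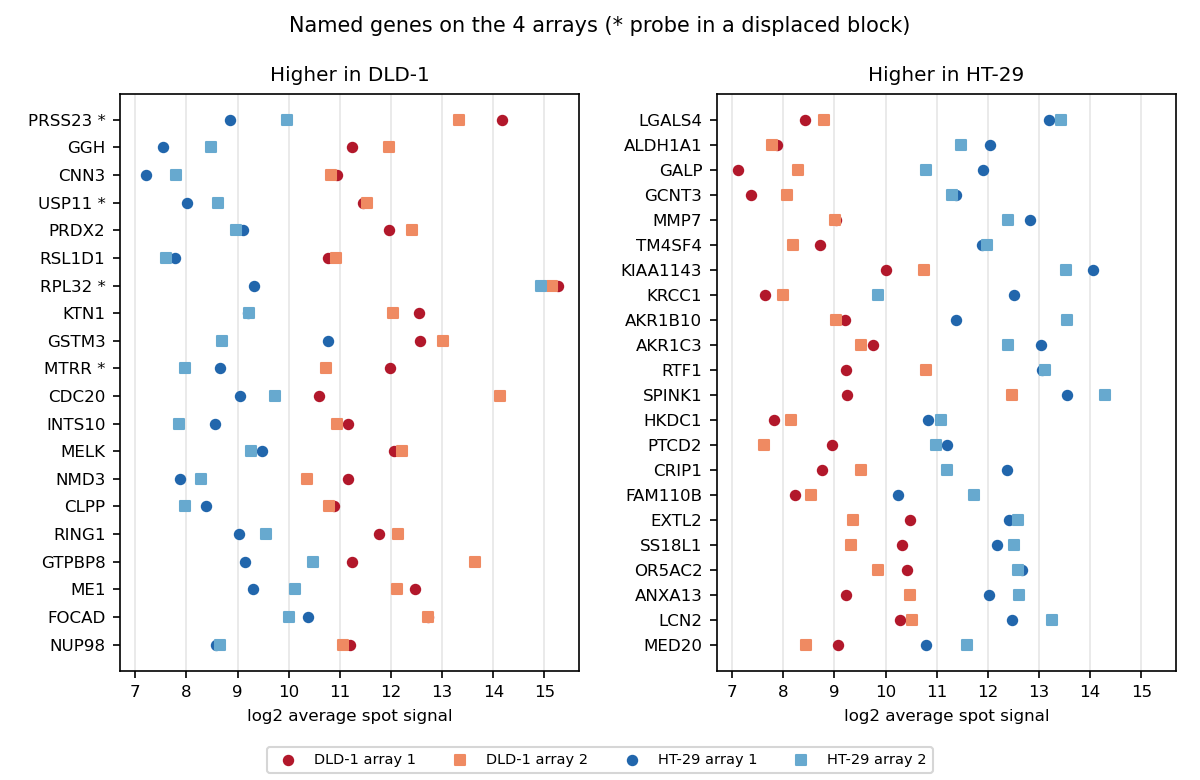
Log2 average spot signal (horizontal axis) of the genes named for the largest differences, plus LGALS4 and MMP7, with 1 point per array; asterisks mark genes with a probe in the displaced blocks. The genes shown were picked for points that do not overlap between DLD-1 (red) and HT-29 (blue); the spread within DLD-1 is wide for SPINK1 and CDC20, and RPL32 has 1 HT-29 point close to the DLD-1 points.

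Promoter windows of RefSeq (GRCh38.p14; 250 bases before to 50 after the start) were read for the 6464 tested genes that the table lists with 1 start, since 5-aza-2'-deoxycytidine blocks a methylation that falls on CpG dinucleotides. The median window of those genes held 25 CpGs. Windows of all called genes higher in HT-29 held a median of 22 (463 genes), and 15.6% had fewer than 5. Those of all called genes higher in DLD-1 held a median of 26 (735 genes), and 8.3% had fewer than 5. In the smaller sets, windows of called genes above background in HT-29 alone held a median of 20 (53 genes matched), and 20.8% of them had fewer than 5. Windows of called genes above background in DLD-1 alone held a median of 29 (50 genes), and 2% had fewer than 5, against 11% of all tested genes. No methylation was measured here, and these counts describe the sequence only. The windows of LGALS4 and ALDH1A1, both far higher in HT-29, and of MELK, a mitotic kinase higher in DLD-1, are shown with their CpGs in capitals.
LGALS4, chr19:38812896-38813195, minus strand, 7 CpGs: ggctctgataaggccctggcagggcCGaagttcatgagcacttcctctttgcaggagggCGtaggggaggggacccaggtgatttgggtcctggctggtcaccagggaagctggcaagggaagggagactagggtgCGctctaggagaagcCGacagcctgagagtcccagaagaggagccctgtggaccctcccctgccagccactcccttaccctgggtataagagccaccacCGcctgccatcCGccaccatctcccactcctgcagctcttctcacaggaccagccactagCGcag
ALDH1A1, chr9:72953004-72953303, minus strand, 7 CpGs: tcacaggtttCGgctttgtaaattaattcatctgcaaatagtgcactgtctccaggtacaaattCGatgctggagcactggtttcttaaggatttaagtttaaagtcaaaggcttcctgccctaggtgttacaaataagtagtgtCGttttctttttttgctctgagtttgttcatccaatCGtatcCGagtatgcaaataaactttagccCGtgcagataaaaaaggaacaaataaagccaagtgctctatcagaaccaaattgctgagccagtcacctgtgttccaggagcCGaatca
MELK, chr9:36572645-36572944, plus strand, 40 CpGs: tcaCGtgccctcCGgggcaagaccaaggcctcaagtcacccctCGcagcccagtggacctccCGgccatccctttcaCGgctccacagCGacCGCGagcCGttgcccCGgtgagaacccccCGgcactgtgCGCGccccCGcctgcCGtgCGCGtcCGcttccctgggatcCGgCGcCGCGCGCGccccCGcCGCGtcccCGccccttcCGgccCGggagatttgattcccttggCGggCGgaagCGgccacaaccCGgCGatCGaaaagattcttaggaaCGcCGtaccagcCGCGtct
The LGALS4 and ALDH1A1 windows have fewer CpGs than those of 83.7% of the tested genes, and MELK more than most, with 10.6% of the genes above it. The windows shown were chosen by hand, and LGALS4 and MELK lie outside the sets above background in 1 line alone. Other named genes went the opposite way. SS18L1 and KIAA1143, higher in HT-29, had 49 and 34 CpGs, and GSTM3 and KRT8, higher in DLD-1, had 1 and 2.

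Of 54 measured members of a cell cycle list, 14 were higher in DLD-1 (25.9%, against 11% of all genes), 1, CCND2, was higher in HT-29, and 39 were not called. The list's median difference was 0.71, against 0.13 for all genes. It was 0.65 on the first arrays and 0.66 on the dye-exchanged arrays, and 0.45 to 0.85 over all settings tried. CDC20, an activator of the anaphase-promoting complex, measured 10.60 and 14.13 in DLD-1 and 9.04 and 9.73 in HT-29 (2.98); its DLD-1 arrays were far apart, and the call was lost with block medians set to 0. KIF20A, a kinesin of cytokinesis, measured 11.50 and 11.94 against 9.83 and 8.97 (2.32). CCNA2, cyclin A2, measured 11.68 and 12.15 against 9.36 and 9.95 (2.26). MELK, a mitotic kinase outside the list, measured 12.06 and 12.22 against 9.47 and 9.26 (2.77). CCND2, cyclin D2, had its probe in a displaced block and, moved back, differed by −0.83 with no call. TYMS, thymidylate synthase, at 12.21 and 12.73 against 10.04 and 12.39, overlapped between the lines and was not called. Without the displaced blocks the list had 14 of 51 members higher in DLD-1 and 0 higher in HT-29, and the median stayed at 0.71. In all 4 matched channels at least 2-fold were 4 members in DLD-1 and 0 in HT-29.

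Promoters of cell division genes commonly hold CCAAT boxes, bound by NF-Y, and the CHR element TTTGAA, read by the DREAM complex. Each window was searched on both strands for these letters, and overlap between matches of the motifs was not checked. CCAAT was in 24 of the list's 30 windows that could be read (80%), in 37.4% of the windows of all tested genes and in 36.2% of all RefSeq windows with 1 start. TTTGAA was in 14 of 30 (46.7%), against 10.8% and 16%. Among the list's members higher in DLD-1, 8 windows could be read, of which 8 held CCAAT and 3 TTTGAA. The window of CDC20, the list's member with the largest difference, shows both, in capitals.
CDC20, chr1:43358731-43359030, plus strand: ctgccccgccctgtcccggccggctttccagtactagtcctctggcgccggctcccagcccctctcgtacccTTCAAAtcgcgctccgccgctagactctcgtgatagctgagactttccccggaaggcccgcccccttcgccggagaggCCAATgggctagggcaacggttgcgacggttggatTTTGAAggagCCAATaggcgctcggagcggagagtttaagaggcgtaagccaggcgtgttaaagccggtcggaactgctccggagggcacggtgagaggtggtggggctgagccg
Its CCAAT boxes begin at −100 and −55 and its TTTGAA at −65 from the start, with its reverse complement at −178. The match describes the letters and not binding.

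Of 30 proteasome subunits, 5 were higher in DLD-1 (16.7%, against 11% of all genes) and 0 in HT-29, so the share called in either direction was below the 18.2% of all genes. The list had a median of 0.61 (0.34 to 0.93 over the settings). PSMD6, of the regulatory lid, measured 13.40 and 13.18 against 10.91 and 10.88 (2.39), PSMC6 of the ATPase ring differed by 2.36, and PSMC1, PSMB6 and PSMB5 by 1.84, 1.44 and 1.40. Ribosomal proteins had 3 of 69 higher in DLD-1, RPL32, RPL12 (1.31) and RPL17 (1.18), and 0 higher in HT-29, with a median of 0.24. Without the displaced blocks 2 of 66 were called. RPLP2 and RPL28 differed by 3.13 and 3.05 as deposited, with overlap, and by 0.36 and −0.05 with the blocks moved back. The share of ribosomal proteins called towards DLD-1, 4.35%, was below the 11% of all genes. With block medians set to 0 and the displaced blocks as deposited it was above, at 11 of 69 (15.9%) against 9.22%. Those 11 included RPL32, RPLP2 and RPL28, which rest on displaced values and were not called when moved back. RPL12 and RPL17 were not called there.

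Among 39 measured genes of intestinal epithelial differentiation, 4 were higher in HT-29 (10.3%, against 7.17% of all genes) and 2 in DLD-1 (5.13%), with a median of −0.36. With only genes above background on all 4 arrays, a filter that leaves out LGALS4, the median was 0.32. VIL1, villin of the brush border, measured 10.34 and 9.85 in DLD-1 and 12.12 and 11.48 in HT-29 (−1.71), and its 4 matched channels ran from −2.06 to −1.47. LGALS4 and ANXA13 were the larger called differences of this list. APOA1, an apolipoprotein, and CDHR2, a brush border cadherin, were higher in DLD-1 by 1.31 and 1.07. FABP1 and FABP2, fatty-acid-binding proteins of enterocytes, were not called; FABP2 (−1.81) measured 11.92 and 6.66 on the DLD-1 arrays and 11.51 and 10.68 on the HT-29 arrays, so a single DLD-1 array set its difference. Of 31 goblet and secretory cell genes, 3 were higher in HT-29 (9.68%, against 7.17% of all genes) and 0 in DLD-1, with a median of −0.36. The 3 were SPINK1, the mucin MUC6 (−1.93) and the defensin DEFA6 (−1.91). MUC6 rested on the second pair of arrays, with 12.27 and 8.51 in DLD-1 against 12.37 and 12.27.

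Detoxification and redox enzymes differed in both directions. Of 44 measured, 9 were higher in HT-29 (20.5%, against 7.17% of all genes) and 4 in DLD-1 (9.09%, below the 11% of all genes). In all matched channels at least 2-fold were 4 members in HT-29 and 2 in DLD-1, where all genes gave 1.69% and 2.53%. ALDH1A1, AKR1B10 and AKR1C3, given above, were the largest in HT-29. In DLD-1 the leading ones were GSTM3, GCLM, the modifier subunit of glutathione synthesis (at least 1.95-fold), and ALDH2, the mitochondrial acetaldehyde dehydrogenase (1.25). Of 4 metallothioneins, 2 were higher in DLD-1 (50%, against 11% of all genes), MT1L (2.03) and MT1H (1.60). MT1H measured 13.82 and 12.92 against 10.79 and 12.75, close to overlap on the second arrays, and near-identical family members can share a probe's signal.

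Median differences of the detoxification list and of the lists that follow lay between −0.20 and 0.21, except for mismatch repair at 0.57, and that of the 4 metallothioneins was 1.28. Among 27 p53 targets, 4 were higher in DLD-1 (14.8%, against 11% of all genes) and 1, PLK2, in HT-29 (−1.13; 3.7% against 7.17%), so the share called was near that of all genes. They were PERP, a desmosome protein (2.18), GADD45A, a growth arrest protein (10.01 and 10.16 against 7.96 and 8.17, at least 3.09-fold), the death receptor FAS (1.73) and SESN1 (1.34). CDKN1A, the p21 cell cycle inhibitor, measured 8.69 and 11.13 against 10.45 and 11.81 and was not called. Of 22 WNT targets, 3 were higher in HT-29 (13.6%, against 7.17% of all genes), MMP7, CD44 (−1.07) and DKK1 (−1.12). FGF20 was higher in DLD-1 (1.52), a share of 4.55% against 11%. Of 35 genes of MAPK pathway output, 4 were higher in HT-29 (11.4%, against 7.17%) and 2 in DLD-1 (5.71%, against 11%). PHLDA1 (−1.54), FOS (−1.48) and ETV4 (−1.24) were the largest in HT-29. Those in DLD-1 were AREG, an EGF receptor ligand (1.45), and DUSP6, an ERK phosphatase (1.16). Of 46 growth factors, receptors and ligands, 3 were called towards DLD-1 (6.52%, against 11%), AREG, MST1R (1.31) and IL18 (1.04). Towards HT-29 were 2 (4.35%, against 7.17%), CCL15 and MDK (−1.07).

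Of 19 genes of mismatch repair with MGMT, 2 were higher in DLD-1 (10.5%, against 11% of all genes) and 1, MSH6, in HT-29 (5.26%, against 7.17%). MSH6 measured 7.80 and 9.12 in DLD-1 and 10.19 and 9.43 in HT-29, and was not above background on either DLD-1 array. The bound was 1.77-fold and the arrays lay close on the second pair. Its matched channels ran from −2.49 to 0.16, so the sign was not the same in all 4. LIG1, a DNA ligase, was among those higher in DLD-1 (1.03), with matched channels from −0.30 to 1.90. MGMT, which removes alkyl groups from guanine, measured 9.81 and 11.33 against 11.31 and 12.73, a difference of −1.45 with an overlap at 11.31 to 11.33. Of 22 genes of MHC class I presentation, 2 were higher in DLD-1 (9.09%, against 11% of all genes) and 1 in HT-29 (4.55%, against 7.17%). HLA-E (1.81) and the immunoproteasome subunit PSMB9 (1.13) were those in DLD-1. B2M was higher in HT-29 by its own probe (11.49 and 11.25 against 13.14 and 14.11). Of 35 interferon-stimulated genes, 5 were higher in DLD-1 (14.3%, against 11% of all genes), among them MX2 (2.17), IRF7 (1.57) and IFITM2 (1.18). In HT-29 3 were higher (8.57%, against 7.17%), IFI35 (−1.45), GBP2 (−1.03) and IFIT3 (−1.03). MX2 measured 8.01 and 10.64 on the HT-29 arrays, above background on 1 of them, and its pairs differed by 3.69 and 0.66. The IRF7 pairs differed by 0.59 and 2.55. MX2, IRF7, IFITM2, GBP2 and IFIT3 lost the call with block medians set to 0.

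Cancer-testis genes are germ cell genes that are usually methylated in somatic cells. Of 31 members, 6 were higher in DLD-1 (19.4%, against 11% of all genes) and 2 in HT-29 (6.45%, against 7.17%). MAGEA10 measured 11.92 and 11.41 in DLD-1 and 8.80 and 7.92 in HT-29 (3.31), with 3.02 to 4.04 in the 4 matched channels. SSX2 differed by 1.57. ACRBP was higher in HT-29 at 7.03 and 7.40 against 11.21 and 8.55 (at least 2.46-fold), and MAGEA8 differed by −1.10. Members of the MAGE and SSX families are near-identical, and their probes may share signal. The list's median was 0.21, and −0.16 with block medians set to 0. Of 28 HOX genes, 4 were higher in HT-29 (14.3%, against 7.17% of all genes). They were HOXC10 (8.34 and 8.28 against 11.34 and 10.30, at least 4.72-fold), HOXC8 (−2.38), HOXC5 (−1.52) and HOXD1 (−1.16). HOXC8 (8.04 and 11.57 in DLD-1) and HOXC5 (10.46 and 8.23) were above background on 1 DLD-1 array and each rested on the lower one, and both lost the call with block medians set to 0. HOXD3 was called higher in DLD-1 from a displaced block and was not called when moved back (0.93).

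Of the structural lists, keratins had 3 of 15 members higher in HT-29 (20%, against 7.17% of all genes), KRT12 (at least 3.33-fold), KRT16 (−1.48) and KRT14 (−1.17). KRT12 measured 9.54 and 6.49 in DLD-1 against 10.50 and 10.81, so its pairs differed by −0.97 and −4.32 and it rested mostly on DLD-1 array 2. KRT8, of simple epithelia, was higher in DLD-1, at 13.45 and 12.97 against 11.91 and 11.01 (1.75). Of 23 tight junction genes, CXADR, the coxsackievirus and adenovirus receptor, measured 10.33 and 9.97 in DLD-1 and 7.97 and 7.81 in HT-29, at least 3.23-fold higher, and stayed between 2.12 and 2.40 in the matched channels. For CLDN3 the bound was 1.86-fold, also towards DLD-1, and for F11R 3.55-fold towards HT-29. Of 28 CEACAM and cell adhesion genes, 2 were higher in DLD-1 (7.14%, against 11% of all genes) and 2 in HT-29 (7.14%, against 7.17%). P-cadherin (CDH3, 2.14) and the tetraspanin CD9 (1.47) were those in DLD-1, and N-cadherin (CDH2, −1.87) and CD44 those in HT-29. Of 31 mesenchymal genes, 3 were higher in DLD-1 (9.68%, against 11% of all genes) and 1 in HT-29 (3.23%, against 7.17%). TGFBI (1.77), CCN2 (at least 2.18-fold) and SNAI2 (1.06) were those in DLD-1. MSN, moesin, was higher in HT-29 (−2.21) and rested on DLD-1 array 1, at 7.69 against 11.15 on DLD-1 array 2. Annexin and S100 genes had 5 of 24 higher in HT-29 (20.8%, against 7.17% of all genes), or 4 of 23 without the displaced blocks (17.4%, against 7.13%). ANXA10 (−2.97), ANXA13 and S100A12 (−2.11) led, and ANXA3 was higher in DLD-1 (1.07). Among 39 proteases and inhibitors, 3 went each way (7.69%, against 11% of all genes for DLD-1 and 7.17% for HT-29). They were CTSL (1.51), MMP9 (1.5) and SPINT2 (1.29) in DLD-1 and MMP7, KLK11 (−1.89) and SERPINB1 (−1.11) in HT-29.

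**Figure D5:**
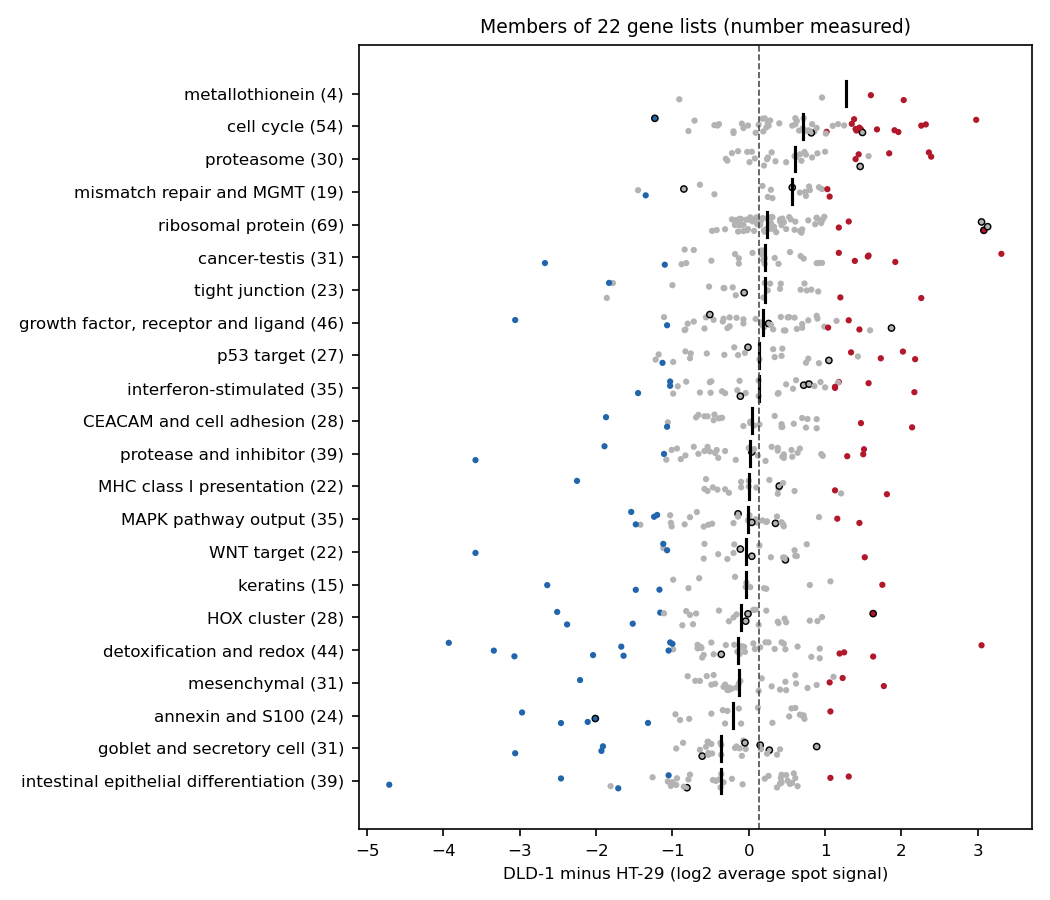
DLD-1 minus HT-29 (log2, horizontal axis) of each measured member of the 22 gene lists, with the number measured after the list's name; red points were called for DLD-1 and blue points for HT-29, grey points were not called, and black outlines mark genes with a probe in the displaced blocks. Bars are list medians, 0.71 for the cell cycle and −0.36 for the 2 intestinal lists at the bottom, and the dashed line is the median of all genes at 0.13.

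For some named genes the line difference depended on the file channel in the same way in both dye orientations, and examples follow. DKK1, a secreted WNT antagonist, was lower in DLD-1 by −2.20 and −3.38 in channel 1 of the first and the dye-exchanged arrays, and differed by 0.09 and 0.48 in channel 2. TKTL1, a transketolase-like gene of the cancer-testis list, differed by 0.54 and −0.26 in channel 1 and was higher in DLD-1 by 5.14 and 2.14 in channel 2. CRIP1, named above, kept its sign but differed by −5.26 and −2.68 in channel 1 and by −2.18 and −0.71 in channel 2. These were picked after their values were seen, and the dependence was not tested.

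Markers of the labelled cell type were mostly above background in both lines. Of 9 colorectal epithelial markers, 7 were above background on all 4 arrays, among them EPCAM (14.80 and 14.77 in DLD-1, 13.53 and 14.87 in HT-29), KRT19, CDH1 and the intestinal regulator CDX2 (9.54 and 10.42 against 10.19 and 11.67). CDH17 was above background on 1 array only. The same measure gave 6 of 8 fibroblast, 7 of 8 leukocyte, 4 of 5 endothelial, 2 of 3 erythroid and 5 of 6 muscle and neural markers above background on all 4 arrays, and 8 to 13 of 96 negative control spots per array passed it. Passing it therefore does not by itself show that a gene is expressed. Of the 30 such markers of other cell types, PTPRC was called higher in DLD-1 (1.39), and PDGFRA (−1.38) and FAP (−1.74) higher in HT-29.

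By chromosome, median differences ran from −0.04 (chromosome 21) to 0.26 (chromosome 13) around 0.13 for all genes. Where different probes of a gene could be set side by side, a second probe had the sign of the first in 61.2% of 1210 pairs whose first probe was called, was called the same way in 17.9% and the opposite way in 7.27%. A limma fit over the 4 arrays, whose p-values measure the spread between hybridisations and not between cultures, called 0 genes in either direction at a Benjamini-Hochberg adjusted p of 0.05, with 375 and 255 genes at an unadjusted p below 0.05. With the dye orientation as a block the limma fit called 4 genes for DLD-1 and 9 for HT-29. LGALS4 had an adjusted p of 0.00177 in that limma fit, PRSS23 of 0.00481, computed from its displaced value, and ALDH1A1 of 0.0178, and MMP7, GALP, GCNT3 and GGH each had 0.0415 and TM4SF4 0.0439. The other 5, outside the naming rule, were KANSL1L (−4.58), CYP11B1 (−3.52), SELP (−3.52), EIF5 (3.55) and PIP4P2 (3.51).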

How the data were processed

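Total RNA of DLD-1 and HT-29 cells was extracted with TriZol, amplified with an amino allyl kit and coupled to Cy3 or Cy5, per the labels' protocols. The deposited scanner files hold, per spot, linear intensities, the background around the spot and its SD for 2 channels. The scanner is not given in the sources used, and the deposited ratio table was not used here. All spots first went through normexp with an offset of 50 (limma 3.58.1 in R 4.3.3), log2 signals of both channels were averaged, and the 29640 non-control spots less 49 marked bad on some array were quantile-normalized. Median signal after background ran from 581 to 2870 per channel and array, and the number of arrays limits the precision. Probes of a gene were averaged. Platform symbols named 14200 probes and deposited descriptions 1394 more, 12998 genes in all.

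A gene above background in 1 line only got a bound. On each array of the other line it was set against the lowest signal of probes above background in both channels, or its own value if higher. For MED20 and F11R the own values were higher, and the bound is the measured fold. Named were the 12 largest called differences per direction among genes above background on all 4 arrays with 1 sign in the matched channels, the 8 largest bounds per direction, up to 3 called members per direction of each list (all where 5 or fewer), the 2 largest uncalled members and the cell type markers. The members, lists and rules were chosen with earlier results of these data known. The steps were tested on simulated data.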

Additional observations from a re-analysis of the deposited data

How the results depend on the processing

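The 4 counts moved by over 1.5 times under these settings, except where DLD-1 array 1 alone was left out. Counts are given as probes called for DLD-1, probes called for HT-29, and then genes in the same order. They were 1511, 973, 839 and 414 with only probes above background on all 4 arrays, 357, 524, 189 and 172 at 4-fold, 4782, 4698, 2372 and 1707 from the first arrays alone, 5313, 4848, 2493 and 2042 from the dye-exchanged arrays alone, and 499, 564, 290 and 193 at 2-fold in all matched channels. They were 0, 0, 0 and 0 in limma over the 4 arrays (375 and 255 genes at an unadjusted p below 0.05), and 8, 33, 4 and 9 in limma with the dye orientation as replicate block. Leaving out 1 array in turn gave 2717 to 5442 and 2980 to 5104 probes and 1449 to 2553 and 1209 to 2043 genes, where a line of 1 array overlaps less easily; HT-29 array 1 gave the highest of each. Single-array settings need fewer arrays to be apart, and the limma settings use a test in place of a size; for the others the cause was not tested. Without the displaced blocks, chosen after seeing the data, the counts were 2271, 1921, 1215 and 783, and with them moved back 2361, 1968, 1266 and 798. The labels give no replicate numbers, and arrays of one dye orientation deviated from their line means with a correlation of 0.10 between lines. Of 125 named genes called, 124 kept 1 sign under every setting; DKK1 turned to 0.29 with channel 2 alone. With block medians set to 0, 36 of the 125 lost the call, among them CDC20, CCND2, PSMB5, PSMB6, RPL12, RPL17, APOA1, CDHR2, MUC6, MT1L, PLK2, SESN1, CD44, DKK1, FGF20, ETV4, MST1R, MDK, IRF7, MX2, IFITM2, IFIT3, GBP2, HOXC5, HOXC8, KRT14, KRT16, CLDN3, CCN2, SNAI2, ANXA3, MMP9, SPINT2, SERPINB1 and PDGFRA. Medians of 6 of the 22 lists kept 1 sign under every setting: cell cycle, proteasome, ribosomal protein, mismatch repair, metallothionein, and goblet and secretory cell. With 2 arrays a line and 1 replicate, a difference between lines cannot be told apart from one between hybridisations of these RNAs.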
